A study of Mus musculus with 6 samples.

Results

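The cytosolic ribosome is built from ribosomal RNA and a fixed set of small, mostly basic proteins, and the genes of these proteins were followed in mouse embryonic stem cells exposed to SC1. Members were taken by symbol, as genes probed through a RefSeq messenger RNA accession whose name follows the Rpl and Rps nomenclature, with the S6 kinases and pseudogenes left out. The rule found 85 of 37074 genes on the array, carried by 175 of its 55681 distinct probes. They comprised 31 canonical proteins of the small subunit, 46 of the large subunit, 7 paralogues (Rpl3l, Rpl7l1, Rpl10l, Rpl22l1, Rpl36al, Rpl39l and Rps27l) and Rpl32l, a retrocopy of Rpl32. All 85 genes had a probe well above background and were tested.

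The cells were of the J1 line, an established embryonic stem cell line from the inner cell mass of the 129S4/SvJae strain. Both groups were adapted to gelatin (0.2%) without a feeder layer named in the labels, and both received 15% serum replacement and LIF, a cytokine of self-renewal, at 1000 U/mL. In 3 samples SC1 was added at 1 µM for 6 h, and 3 samples received DMSO, its solvent, for 6 h. SC1, or pluripotin, was reported as a dual inhibitor of the kinase ERK1 and of RasGAP. One cell line was used, and the labels do not tell whether the 3 samples of a group came from separate cultures, so the p-values cover only sample-to-sample spread, possibly of technical origin.

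Each ribosome needs a fixed number of copies of each protein, and cells make them from some of their most abundant messenger RNAs. These messenger RNAs carry a 5′ terminal oligopyrimidine tract (TOP), a run of C and T at the very start, through which mTOR signalling and the RNA-binding protein LARP1 adjust their translation. Embryonic stem cells divide fast and keep ribosome production high. The paralogues are copies with their own expression: Rpl39l and Rpl10l are known from male germ cells, Rpl3l from striated muscle, and Rps27l as a target of p53.

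RefSeq promoter windows (GRCm38.p6) were matched by symbol for 65 of the 85 genes. The windows below run from 10 bases before to 20 bases after the annotated start, written 5′ to 3′, and capitals mark at least 5 unbroken pyrimidines counted from no more than 3 bases before it and beginning at most 3 bases after it. Pyrimidines of the same run that lie further upstream are not counted and stay in lower case. The windows are shown because ribosomal protein messenger RNAs are known for this tract. The canonical genes with the longest runs counted this way were the following.
Rpl27a, chr7:109519185-109519214, plus strand: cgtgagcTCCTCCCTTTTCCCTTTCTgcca
Rpl15, chr14:18270967-18270996, minus strand: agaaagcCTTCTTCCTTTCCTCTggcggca
Rpl13a, chr7:45128726-45128755, minus strand: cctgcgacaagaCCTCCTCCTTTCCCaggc
Rpl35, chr2:39005112-39005141, minus strand: ccgccctTTCCTCTTTCTCTCgaaccaggc
The counted runs of these 4 genes were 19, 16, 14 and 14 bases long, and with their upstream bases the whole runs were 20, 17, 14 and 18 bases.

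The 7 paralogues and the partners Rpl39 and Rpl36a are set beside these, since the paralogues hold all 4 members that fell.
Rpl39l, chr16:10170218-10170247, plus strand: aggcctttccggaTTTCCggtggtcgccat
Rpl39, chrX:37085203-37085232, minus strand: gctccgcctctagcgacttcttctaatcgc
Rpl7l1, chr17:46782637-46782666, minus strand: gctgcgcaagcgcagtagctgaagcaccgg
Rpl3l, chr17:24727816-24727845, plus strand: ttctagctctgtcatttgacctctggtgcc
Rpl36al, chr12:69184048-69184077, minus strand: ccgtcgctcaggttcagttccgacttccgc
Rpl36a, chrX:134585644-134585673, plus strand: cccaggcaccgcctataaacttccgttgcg
Rpl10l, chr12:66284382-66284411, minus strand: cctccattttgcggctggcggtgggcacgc
Rps27l, chr9:66946076-66946105, plus strand: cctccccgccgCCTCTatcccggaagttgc
Rpl22l1, chr3:28805498-28805527, plus strand: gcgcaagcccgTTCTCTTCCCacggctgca
Rpl39l and Rps27l each had a counted run of 5 bases and Rpl22l1 one of 10, and the other 4 paralogues had none. Of the 3 with a run, Rpl39l fell with SC1 and the others did not pass. Rpl36a had none, and in Rpl39 a run of 5 bases reaches the start but begins 4 bases before it, so it was not counted. A missing run says only that these letters are not there at the annotated start.

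A counted run was present in 37.3% of the 67 canonical windows (24 of 57 genes), in 33.3% of the 9 paralogue windows (3 of 7 genes) and in 16.6% of all 32851 windows. Counted whole, a run reached these bases in 46.3%, 33.3% and 26.1%, and its first base lay within 3 bases of the start in 22.4%, 33.3% and 13.8%; both counts were added after the data were seen. Other short motifs were searched on both strands in the whole 300 bases. CCGGAAG, the core bound by ETS factors such as GABP, was in 37.3% of canonical windows and 8.86% of all. The palindrome TCGCGA was in 22.4% against 2.5%, and CACGTG, the E-box bound by MYC, in 11.9% against 7.15%. No overlap between these motifs was removed.

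After 6 h of SC1 none of the 77 canonical ribosomal protein genes passed the test in either direction. The log2 fold change, SC1 minus DMSO, ran from -0.11 for Rpl19 to 0.11 for Rpl41, with a median of 0.0046. Of the 85 genes 4 fell and 0 rose (limma, adjusted p under 0.05 over all genes), all 4 of them paralogues. This is 4.71% of the genes, beside 38.3% of all 25442 genes tested (20.2% lower, 18.1% higher). At an unadjusted p under 0.05 there was 1 canonical gene, Rpl19, and 12020 genes overall. With a background model (normexp) and 75th percentile scaling, 6978 of the 12051 genes called were higher, against 4612 of 9751 here, while 6 of the 85 fell and 0 rose.

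**Figure D1:**
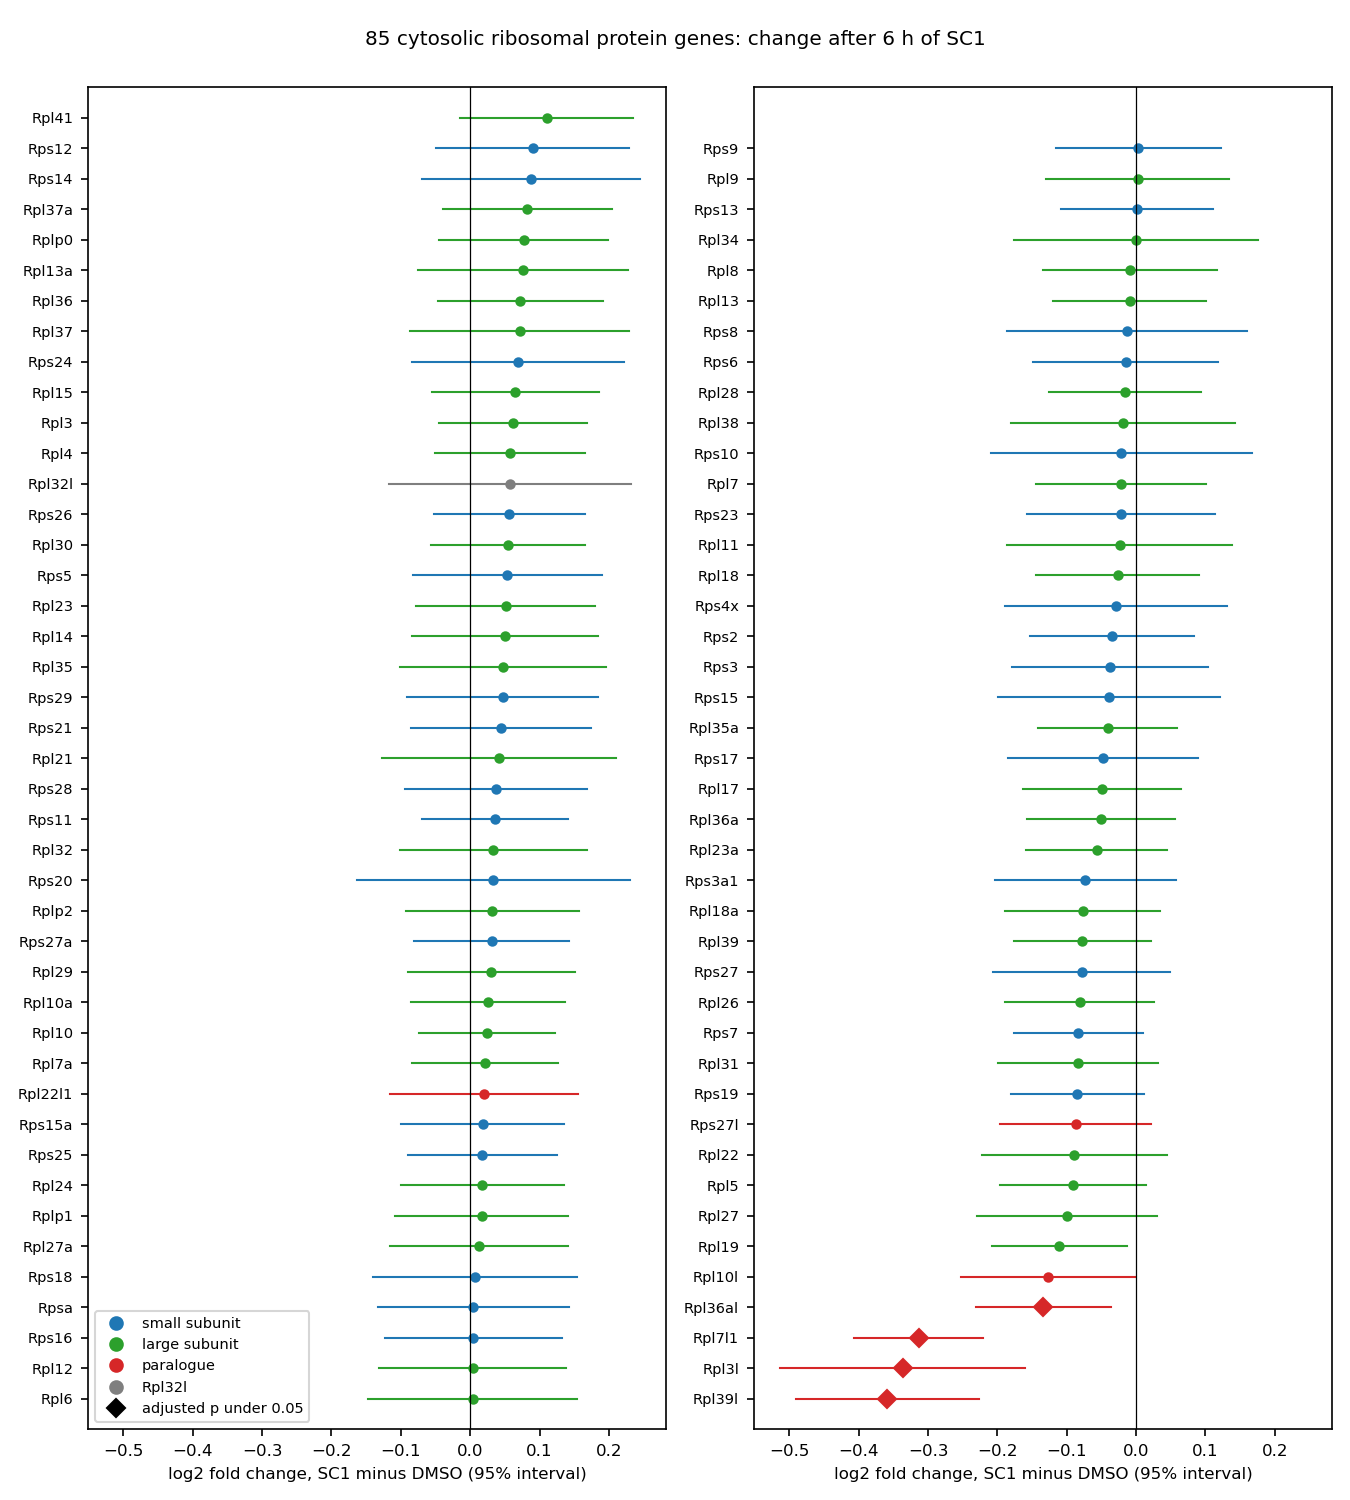
Log2 fold change of each of the 85 genes with its 95% interval from the fit over 3 DMSO and 3 SC1 arrays, sorted from the highest, with colours for class and diamonds for genes past the threshold. The canonical genes lie between -0.11 and 0.11, and the 4 diamonds, Rpl36al, Rpl7l1, Rpl3l and Rpl39l, lie at -0.13 to -0.36.

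Signal level matters for how this share is read. The array level is the log2 signal relative to the 75th percentile of that array, and the canonical genes lay between 6.86 and 9.67, among the brightest probes. Of the 782 other genes within that range, 55 (7.03%) were called, 10 higher and 45 lower, and their median absolute log2 fold change was 0.048 against 0.039 for the canonical genes. Of the 132 genes at a level of 9 or more, 32 of them canonical, limma called 0, while 40.6% to 47.8% of genes between -2 and 6 were called. Read against the other genes in that range, the canonical count of 0 of 77 stands beside 7.03%, not 38.3%. These genes were not matched in level within the range. Of all genes 8.76% were called at levels from 7 to 8, where 11 canonical genes lie. From 8 to 9, where 33 canonical genes lie, 4.13% were called. The difference was not tested. No spot was saturated: the highest signal of a member was 442081, and the scanner's limit was 778941.

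**Figure D2:**
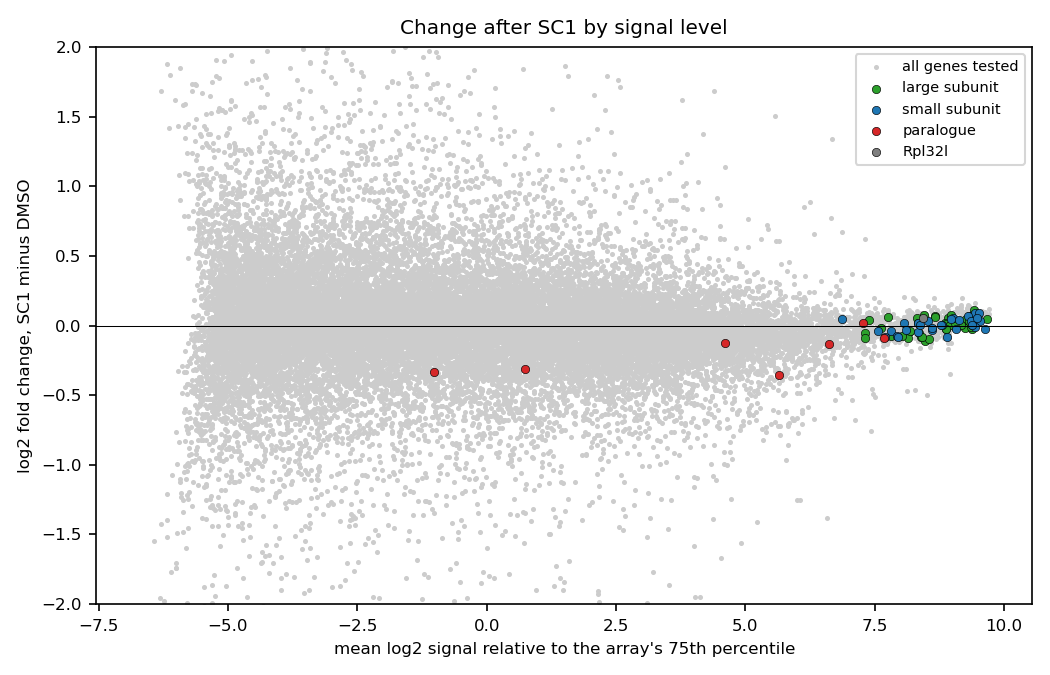
Log2 fold change (vertical) against the mean log2 signal relative to the array's 75th percentile (horizontal) for all 25442 genes tested in grey and for the ribosomal protein genes in colour; 161 genes beyond a log2 fold change of 2 are outside the axes. The grey cloud narrows at high signal, where the canonical genes lie, and the paralogues spread from -1.01 to 7.67.

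Canonical genes also had dimmer probes, which allow a comparison away from the bright end. A set of 21 probes for 19 canonical genes had a mean level under 6, down to -2.56. Of these 1 rose, a probe of Rpl23 (0.15, adjusted p = 0.0484 over probes), and 0 fell. Over the whole array limma called 36.3% of probes, and it called 37.4% of all 33851 probes under that level. The log2 fold changes of the 21 canonical probes ran from -0.19 to 0.15. Their median absolute value was 0.103, against 0.188 for all probes under 6. These sets were not matched for level. Over genes, the median absolute value was 0.231 at levels under -2 and 0.123 at levels from 4 to 6. The 2 brighter probes of Rpl23 gave 0.051 and -6.8e-05. At or above a level of 6, 1 of 144 canonical probes was lower, the dimmest of Rpl26 (-0.16, adjusted p = 0.0436), beside 11.4% of all probes there.

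Of the 52 genes with 2 or more tested probes, 30 had all probes on the same side of 0, 12 above and 18 below. None had probes called in opposite directions. The log2 fold changes of the probes of a gene spanned a median of 0.053 and at most 0.21. Probe sequences were not used here. The RefSeq table names 319 processed or other pseudogene loci after 63 of the members, up to 24 for Rpl31, and whether their RNA adds to these signals was not tested.

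The level of the canonical genes as a whole overlapped between the groups. Their median was 8.84, 8.90 and 8.89 in the DMSO samples and 8.80, 8.85 and 8.93 in the SC1 samples. The group means were 8.88 ± 0.028 (SD, n = 3) and 8.86 ± 0.067 (SD, n = 3). Before scaling, the median signal was 247700 to 253520 with DMSO and 211400 to 219680 with SC1, and the 75th percentile of the whole array was lower in the same arrays, 532.17 to 538.95 against 443.25 to 493.33. In bulk RNA scaled this way, fewer cells of a type and less RNA per cell cannot be told apart. The 95% interval of the fold change lay within 0.2 of 0 on the log2 scale for 62 of the 77 genes, and no interval reached beyond -0.23 or 0.24.

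Both ends of the canonical set were small shifts. Rpl41, the smallest ribosomal protein, was at 9.34, 9.40 and 9.34 in the DMSO samples and at 9.41, 9.46 and 9.54 in the SC1 samples. It was the 1 member whose SC1 samples all lay above the DMSO samples (0.11, SE 0.0508, adjusted p = 0.143), beside 24.6% of all genes. Rpl19, a large-subunit protein near the exit of the peptide tunnel, was at 8.55, 8.53 and 8.50 with DMSO and at 8.40, 8.45 and 8.39 with SC1. Its groups did not overlap either (-0.11, SE 0.0398, adjusted p = 0.0749). Groups lay apart and lower with SC1 for 14 of the 85 genes, 8 of them canonical (16.5% and 10.4%), beside 27.6% of all genes. Of the 782 other genes in the signal range of the canonical genes, 113 lay apart and lower and 41 apart and higher.

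Members were then taken by their place in the ribosome. The P stalk recruits the translation GTPases and consists of Rplp0, which anchors it, Rplp1 and Rplp2, with Rpl12 at its base. All 4 genes lay slightly above 0 (0.0036 to 0.077) and did not pass. Rplp0 was at 9.35, 9.42 and 9.33 with DMSO and at 9.39, 9.44 and 9.50 with SC1, and the groups overlapped. Rpl5 and Rpl11 form a particle with 5S ribosomal RNA that also binds MDM2, the inhibitor of p53. Rpl5 was at 7.30, 7.38 and 7.38 with DMSO and at 7.24, 7.27 and 7.28 with SC1 (-0.091, adjusted p = 0.151), and Rpl11 had a log2 fold change of -0.024.

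Around the exit of the peptide tunnel, where targeting factors and chaperones dock, 6 of 7 genes lay below 0 and none passed. The median was -0.078, beside -0.0052 for all genes. Besides Rpl19, Rpl31 had a log2 fold change of -0.084, Rpl26 -0.081, Rpl39 -0.078, Rpl23a -0.057 and Rpl17 -0.050. Rpl35 alone lay above 0, at 0.047. With normexp and 75th percentile scaling, and with an intensity trend in the variance model, Rpl19 passed.

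On the small subunit, Rps2 and Rps3 line the entry of the messenger RNA channel. Their log2 fold changes were -0.035 and -0.038. At the exit of the channel, Rps14, Rps26, Rps28 and Rpsa had 0.087, 0.057, 0.037 and 0.0047. None of these 6 genes passed. The medians of the P stalk, channel entry and channel exit genes each changed sign under at least 1 of the 20 alternative fits, while those of the tunnel exit and the 5S particle stayed below 0.

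Genes mutated in Diamond-Blackfan anaemia, an inherited failure of red cell production caused by loss of 1 copy of a ribosomal protein gene, showed the same small range. None of the 18 passed, 12 lay below 0, and the median was -0.034. Rps19, the gene most often affected, was at 7.72, 7.77 and 7.71 with DMSO and at 7.64, 7.63 and 7.67 with SC1. The groups did not overlap, and the log2 fold change of -0.085 did not pass (adjusted p = 0.146). Of the ribosomal proteins that carry other names, a pair is given here, and neither passed: Fau, which encodes eS30 as a fusion protein, 0.060, and Rack1, a scaffold on the head of the small subunit, -0.039.

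Among the 7 paralogues 4 fell with SC1, beside 20.2% of all genes that fell. Of the genes at levels from -2 to 6, where 4 of the paralogues lie, 40.6% to 47.8% were called in either direction. Rpl39l was at 5.74, 5.84 and 5.89 in the DMSO samples and at 5.46, 5.43 and 5.50 in the SC1 samples. All 3 SC1 samples lay below the DMSO samples, a 1.28-fold decrease (log2 -0.36, SE 0.0539, adjusted p = 0.00364). Rpl7l1, a relative of Rpl7 known as a factor of large-subunit assembly, was at 0.89, 0.92 and 0.89 with DMSO and at 0.56, 0.59 and 0.61 with SC1. Its SC1 samples also lay apart and lower, by 1.24-fold (log2 -0.31, SE 0.0381, adjusted p = 0.00162).

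Rpl3l, the copy of Rpl3 used in heart and skeletal muscle, had the lowest signal of the members. It was at -0.90, -0.82 and -0.81 with DMSO and at -1.05, -1.21 and -1.29 with SC1, above background on all 6 arrays. The groups did not overlap, and the decrease was 1.26-fold (log2 -0.34, SE 0.0721, adjusted p = 0.0136). Rpl36al, an intronless copy of Rpl36a that encodes a nearly identical protein, was at 6.66, 6.71 and 6.67 with DMSO and at 6.51, 6.56 and 6.57 with SC1. The 1.10-fold decrease was the smallest of the 4 (log2 -0.13, SE 0.0399, adjusted p = 0.0422), and without any 1 of the 6 arrays its adjusted p was 0.073 to 0.124.

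The other 3 paralogues did not pass on their brightest probe. Rpl10l was at 4.65, 4.67 and 4.72 with DMSO and at 4.55, 4.48 and 4.62 with SC1 (-0.13, adjusted p = 0.101), and its second, dimmer probe was called lower (-0.20, adjusted p = 0.0182 over probes). The groups of both probes lay apart. Rps27l had a log2 fold change of -0.087 (adjusted p = 0.179) and Rpl22l1, which rises when Rpl22 is lost, 0.019 (adjusted p = 0.815). Rpl32l had 0.057 (adjusted p = 0.573).

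Each paralogue has a canonical partner, and none of the 7 partners passed. Rpl39 had a log2 fold change of -0.078, Rpl7 -0.022, Rpl3 0.062, Rpl36a -0.050, Rpl10 0.024, Rps27 -0.079 and Rpl22 -0.089. The difference between paralogue and partner within each array is free of any shift common to all probes of an array. This difference fell with SC1 by 0.28 for Rpl39l over Rpl39, by 0.29 for Rpl7l1 over Rpl7, by 0.40 for Rpl3l over Rpl3 and by 0.15 for Rpl10l over Rpl10, and in these 4 pairs all 3 SC1 samples lay below all 3 DMSO samples. The exact two-sided permutation p was 0.1 in each of the 4, the smallest that 3 against 3 samples allow, and 0.175 adjusted over the 7 pairs. For Rpl36al over Rpl36a the difference fell by 0.083 (exact permutation p = 0.2, n = 3), for Rps27l over Rps27 by 0.0084 (exact permutation p = 1.0, n = 3), and for Rpl22l1 over Rpl22 it was 0.11 higher (exact permutation p = 0.3, n = 3). The members of a pair also differ in signal, and the part of signal level in these differences was not tested.

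**Figure D3:**
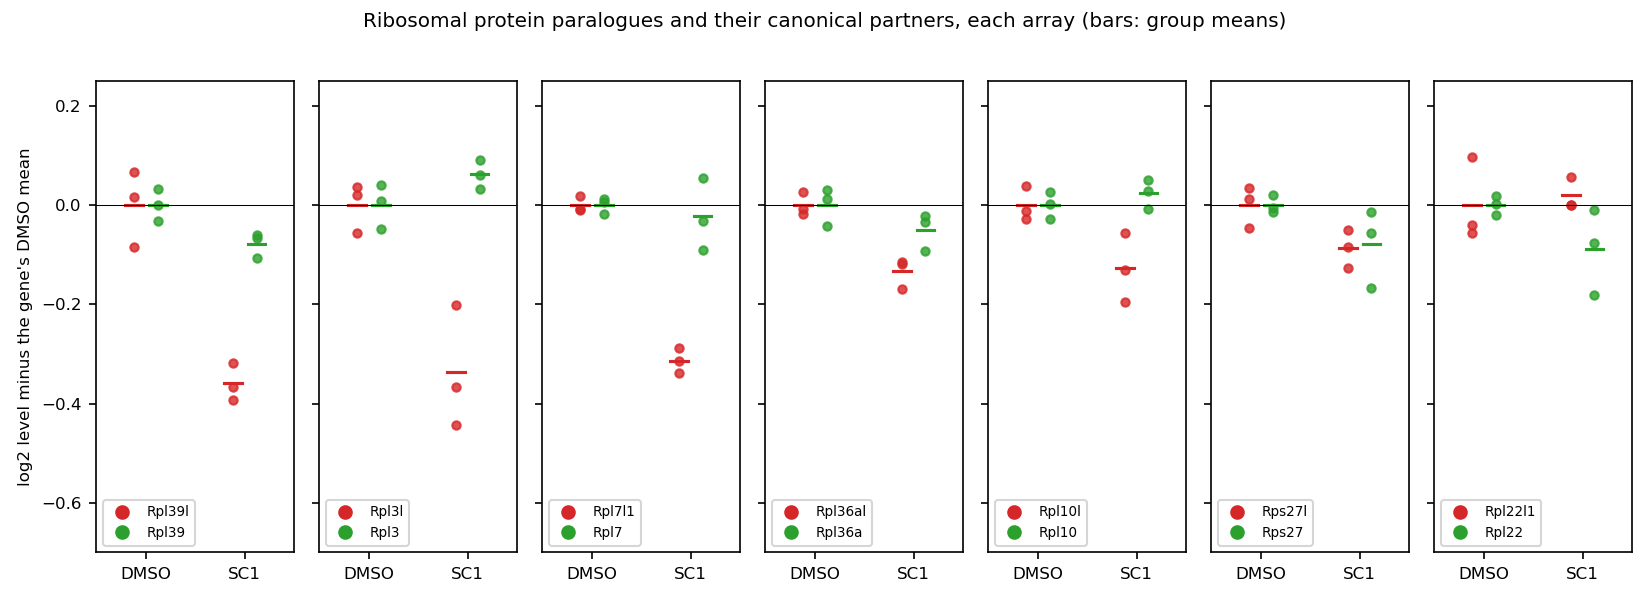
Log2 level of 7 paralogues (red) and their canonical partners (green) on each array, minus the gene's own DMSO mean; points are the 3 arrays of a group and bars their means. The SC1 points of Rpl39l, Rpl3l and Rpl7l1 lie below all their DMSO points, with means at -0.36, -0.34 and -0.31, and the means of their partners lie between -0.078 and 0.062.

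Slide position and scaling bear on these calls. All 6 arrays were on 1 slide, and the first column held the 3 DMSO arrays and SC1 array 1. With the column as a block, which then compares that array with the DMSO arrays of its own column, Rpl39l was at -0.37 (adjusted p = 0.0383) and Rpl7l1 at -0.34 (adjusted p = 0.0173). Rpl3l was at -0.20 (adjusted p = 0.115) and Rpl36al at -0.17 (adjusted p = 0.108), so both lost their call. With arrays scaled to 8 spike-in probes none of the 85 genes passed, and 5068 of all genes did, with Rpl39l at -0.40 (adjusted p = 0.0613), Rpl7l1 at -0.35 (adjusted p = 0.104) and Rpl3l at -0.38 (adjusted p = 0.0864).

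Other genes of ribosome production were followed for comparison, and 19 of 28 nucleolar biogenesis factors fell, 1 rose and 8 were not called, with a median of -0.33, beside 20.2% of all genes that fell. The gene that rose was Polr1b, a subunit of RNA polymerase I (0.14, adjusted p = 0.0399), chosen with its value known. Of 13 chaperones and import factors of ribosomal proteins 7 fell, 0 rose and 6 did not pass, with a median of -0.20. The 53.8% called stands beside 38.3% of all genes. Zfp593 was at 2.72, 2.67 and 2.58 with DMSO and at 1.94, 1.90 and 1.95 with SC1 (-0.72, adjusted p = 0.0002). Rrs1, which with Rpf2 brings the 5S particle into the large subunit, had a log2 fold change of -0.56, Rpf2 -0.33, and Grwd1, the chaperone of Rpl3, -0.43. With spike-in scaling 13 nucleolar factors and 4 chaperones fell and none rose. That scaling also moved the median over all genes, from -0.0052 to -0.0451.

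Ribosomal proteins of the mitochondrion, are encoded by a separate set of nuclear genes. Of 77 tested 30 fell, 1 rose and 46 were not called, and the median was -0.099. The 40.3% called stands beside 38.3% of all genes (20.2% lower, 18.1% higher). Mrpl16 and Mrpl12 each had a log2 fold change of -0.39, Mrps34 -0.37 and Mrps21 -0.36, while Mrpl14 was the gene that rose (0.15, adjusted p = 0.0497), which was chosen with its value known. With spike-in scaling 2 fell, with the slide column as a block 11, and with quantile normalization 20 fell and 6 rose (median -0.030). Without any 1 array 23 to 27 fell and 0 rose. The difference between the mitochondrial and cytosolic sets was not tested.

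Other messenger RNAs reported to carry a TOP encode translation factors and a few further proteins, such as Tpt1 and Npm1. Of 19 tested, 2 fell, 17 were not called and 0 rose, and the median was -0.048, beside -0.0052 for all genes. The share called was 10.5%, beside 38.3% of all genes (20.2% lower, 18.1% higher). Signal level limits this comparison too, since the levels of the list ran from 3.89 to 9.27. Of all genes 45.3% were called at levels from 2 to 4, 8.76% from 7 to 8 and 4.13% from 8 to 9. A difference from genes of the same level was not tested. The 2 that fell were elongation factor genes, Eef1d (-0.21, adjusted p = 0.0368) and Eef2 (-0.23, adjusted p = 0.0493). Eef2 was at 7.57, 7.56 and 7.50 with DMSO and at 7.23, 7.46 and 7.27 with SC1. No gene of the list fell with spike-in scaling, without filter or with the replicate number as a block. None fell without any 1 array other than SC1 replicate 2, which left 1. With quantile normalization 1 rose and 1 fell.

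**Figure D4:**
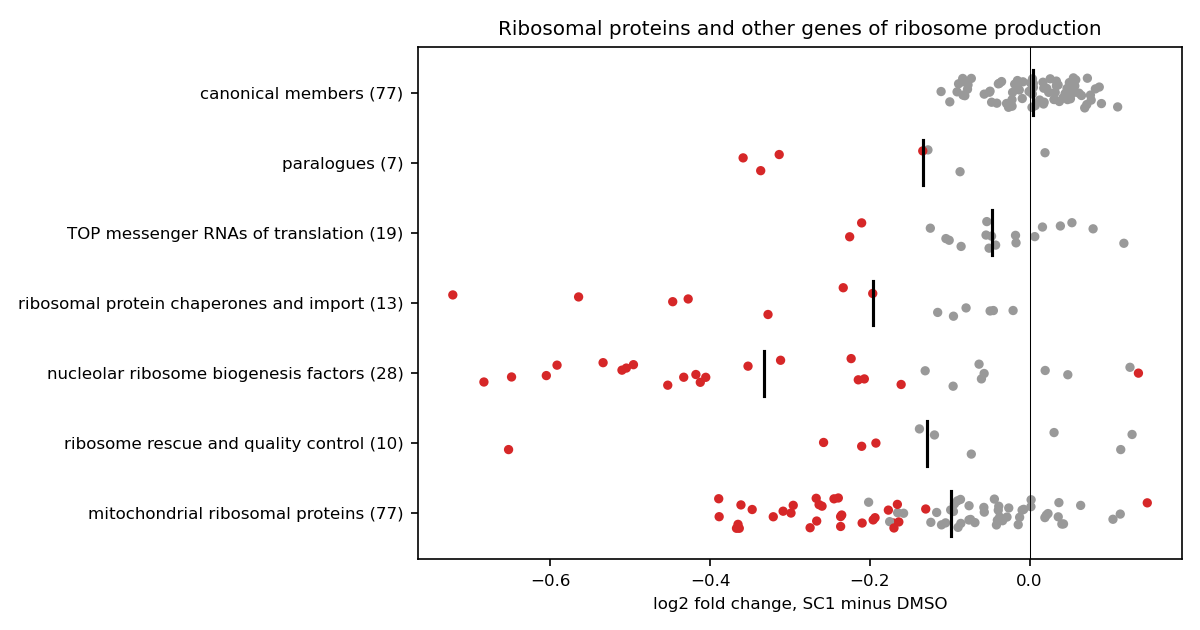
Log2 fold change of each gene in the canonical set, the paralogues and 5 lists of other genes of translation, with the number tested in parentheses; red marks an adjusted p under 0.05, black bars are medians and the vertical jitter has no meaning. The canonical genes form a grey cluster around 0.0046, while the medians of nucleolar factors and chaperones lie at -0.33 and -0.20.

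Messenger RNAs of the machinery that acts on the TOP moved both ways. Of 13 genes tested, 5 rose and 3 fell. That is 61.5% called, beside 38.3% of all genes (18.1% higher, 20.2% lower). Rptor, the mTORC1 subunit that selects substrates, was at 2.55, 2.58 and 2.53 with DMSO and at 2.99, 2.96 and 3.01 with SC1, a log2 increase of 0.43 (SE 0.0395). Akt1s1, which encodes the mTORC1 inhibitor PRAS40, rose by 0.58, and Tsc1, a subunit of the complex that restrains mTORC1, by 0.36. Eif4e, the cap-binding factor gene, was at 3.75, 3.72 and 3.73 with DMSO and at 3.40, 3.43 and 3.42 with SC1, and its log2 fold change was -0.32 (SE 0.0374). Larp1, whose product binds the TOP itself, fell as well (-0.30, adjusted p = 0.0066), and Mtor had a log2 fold change of -0.012; both were chosen with their values known. With spike-in scaling 1 of the 13 passed. The arrays measure RNA, so translation of the ribosomal protein messenger RNAs was not measured.

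Among 11 transcription factors bound at ribosomal protein promoters 3 fell, 0 rose and 8 did not pass. This is 27.3% called, beside 38.3% of all genes (20.2% lower, 18.1% higher). Myc was at 1.20, 1.03 and 1.04 with DMSO and at -3.47, -3.43 and -3.49 with SC1, a log2 fold change of -4.55 (SE 0.0601). Mycn had -0.55 and Sp1 -0.35. The 6 canonical genes with a CACGTG in their promoter window had log2 fold changes from -0.11 to 0.076, and the 51 without one from -0.10 to 0.11. For CCGGAAG the 24 genes with the motif ranged from -0.11 to 0.11 and the 33 without it from -0.10 to 0.090. The 24 genes with a counted pyrimidine run ranged from -0.084 to 0.076 and the 33 without one from -0.11 to 0.11. The ranges overlapped for each motif, within a set where no gene passed, and a difference by motif was not tested.

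Genes that rescue stalled ribosomes gave 4 lower, 0 higher and 6 not passing of 10. The 40% called stands beside 38.3% of all genes (20.2% lower, 18.1% higher). Pelo, which splits ribosomes stalled at the end of a messenger RNA, was at 3.59, 3.55 and 3.66 with DMSO and at 2.91, 2.97 and 2.96 with SC1 (-0.65, adjusted p = 0.0002). Abce1, which recycles ribosomes, had -0.26, Usp10, a ubiquitin protease that acts on small-subunit proteins, -0.21, and Zfp598, the sensor of collided ribosomes, -0.19. With spike-in scaling or the slide column as a block 1 fell, with quantile normalization 2 fell and 1 rose, and without any 1 array 2 to 3 fell.

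The cells carried the markers of their label. All 8 embryonic stem cell markers, Pou5f1, Nanog, Sox2, Zfp42, Esrrb, Klf4, Dppa5a and Tdgf1, were above background on all 6 arrays, and their summed signal relative to the 75th percentile was 564.9 to 590.8 with DMSO and 575.2 to 609.1 with SC1, a sum in which Dppa5a is the brightest. Of the 8, Klf4 rose by 0.21, and Sox2, Zfp42 and Tdgf1 fell, with log2 fold changes of -0.28, -0.25 and -1.39. Of 7 embryonic fibroblast markers 5 were tested, with Lum and Postn not well above background. Of these 3 rose, Col1a1, Col3a1 and Dcn (0.81, 0.50 and 1.18), and 1, Thy1, fell (-1.09). The summed signal of the 5 was 2.182 to 2.339 with DMSO and 1.67 to 1.783 with SC1, a sum in which Thy1 is the brightest. Of 7 primitive endoderm and trophoblast markers 6 were above background in both groups, and 2 of these rose. Over all 7, 2 rose, 1 fell and 4 were not called. The share called was 50% of the stem cell markers, 80% of the fibroblast markers tested and 42.9% of these 7. Of all genes 38.3% were called (20.2% lower, 18.1% higher). Cdx2 was above background on the 3 DMSO arrays and on 0 SC1 arrays, so it entered the test through the DMSO group alone. The sums over the 7 were 0.8273 to 0.8813 with DMSO and 0.8231 to 0.9332 with SC1. The part of such cells in the ribosomal protein values was not tested. Probes well above background made up 65.04% to 65.62% of an array with DMSO and 63.22% to 65.13% with SC1, and the number of arrays limits the precision.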

How the data were processed

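RNA from 6 samples was measured on 6 single-colour Cy3 arrays, per the labels. The deposited files hold one intensity per spot, which per the file headers is a background-subtracted, spatially detrended signal, quantified with Agilent Feature Extraction 10.7 per the submitters' processing notes. The authors also deposited log2 values with equal quantiles on all arrays; their method is not given in the sources used here. They served as an alternative.

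Outlier spots were left out, log2 signals were averaged over the spots of a probe, and arrays were scaled by subtracting their 75th percentile, for 55681 probes. Probes well above background on all 3 arrays of a group were kept. Genes were named by accession through RefSeq, and the probe with the highest mean stood for each. SC1 was compared with DMSO in limma 3.58.1 (R 4.3.3; lmFit, eBayes, two-sided) with Benjamini-Hochberg adjustment over 25442 genes, threshold 0.05. Intervals are 95% from that fit. Probe-level p-values were adjusted over 35324 probes. Paralogue differences were tested with scipy 1.17.1 and figures drawn with matplotlib 3.10.9. The fit was also run on simulated data with independent noise and few changed genes. These differ from the arrays here, and no result is drawn from them.

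Members and lists were chosen with earlier results of these data known. The text names members by class, position list and paralogue pair, and in other lists the passing genes of smallest p, up to 4 of them, with the exceptions stated. Rps4l, annotated as a pseudogene, was left out. The value of 1 listed gene is not reported here.

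Same-numbered samples did not deviate together (correlations -0.0133, -0.0365 and -0.0154), so the samples were not treated as pairs. Alternatives changed the scaling, background correction, filter, probe choice, variance model, blocks and arrays used.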

Additional observations from a re-analysis of the deposited data

How the results depend on the processing

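The count of 4 ribosomal protein genes lower with SC1 was 3 without any 1 array (3 to 3), and 3 to 6 under the other alternatives save these: 0 with spike-in scaling, 2 with the replicate block, 2 with the slide column as a block and 2 at an adjusted p under 0.01. The count of all genes called was 5068, 7910, 5545 and 5792 in these 4, against 9751. Same-numbered samples did not deviate together, which does not settle whether they were paired. The cause of the lower counts was not tested. The canonical count of 0 became 1, Rpl19, with normexp and 75th percentile scaling (adjusted p = 0.0397) and 1 with an intensity trend and robust prior (adjusted p = 0.0364), and stayed 0 in the other alternatives. The median over the 85 genes ranged from -0.0365 with spike-in scaling to 0.0261 without SC1 replicate 1. Rpl36al lost its call in 15 of 21 alternatives, Rpl3l in 4, and Rpl39l and Rpl7l1 in 1 each, always with the same sign. Of the values of named members under these alternatives, 667 kept direction and side of the threshold, 21 lost and 5 gained a call, and none that was called changed sign. The number of arrays, 3 per group, limits the precision.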
